A study of Mus musculus with 9 samples.

Results

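The miRNAs miR-99a, miR-99b, miR-100, miR-125a and miR-125b are a family of 5 names that sit, together with a let-7 hairpin, in 3 paralogous clusters of the mouse genome. They are listed in the deposited count table as mmu-mir-99a, mmu-mir-99b, mmu-mir-100, mmu-mir-125a and mmu-mir-125b, and were taken from it by name: every sequence tag listed under one of their hairpins, and every entry under one of their mature names. This gave 174 of the 6414 entries of the table, of which 163 were tags under 6 hairpins and 11 were mature names that held no count. The tags were summed by miRNA and by arm, the 5p and 3p strands of a hairpin, which left 8 arms with a count among 698 names with a count in the whole series.

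Small RNA was sequenced from B16F1 cells, a pigmented melanoma line from mouse skin, whose strain is C57BL/6 in the labels and C57BL/6J in the study's methods. Of the 9 libraries, 3 came from control cells that were not exposed, 3 from cells exposed to 5.0 mM L-Tyr, the amino acid from which melanin is made, and 3 from cells exposed to 2.5 µg/mL BrdU, a thymidine analog that is built into DNA. Both exposures lasted 72 h, the medium was the same for all groups, and no group was described as genetically modified. The study states that p16INK4a is truncated in B16F1 cells. All libraries come from 1 established line, and the labels do not say whether the replicates of a group were separate cultures, so the p-values measure the spread between these libraries.

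A miRNA is cut from a hairpin and guides the silencing complex to mRNAs that pair with its seed, the bases 2 to 8 of the mature strand. The miR-99/100 family is known to repress the growth kinase gene Mtor and the receptor gene Igf1r. The miR-125 family is the vertebrate counterpart of a developmental timing miRNA of worms and is known to repress Lin28 genes, and miR-125b also Trp53. The let-7 family acts in differentiation on Lin28, Hmga2 and Ras genes, and the Lin28 proteins in turn block the maturation of let-7.

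The mature strands that carried most of the counts are shown with their seeds in capitals, 5′ to 3′, as RefSeq lists them for GRCm38.p6, because the paralogs differ from each other by only a few bases.
miR-99b-5p: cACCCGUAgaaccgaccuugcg
miR-99a-5p: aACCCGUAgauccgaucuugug
miR-100-5p: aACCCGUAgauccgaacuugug
miR-125a-5p: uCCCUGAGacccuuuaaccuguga
miR-125b-5p: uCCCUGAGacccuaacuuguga
miR-351-5p: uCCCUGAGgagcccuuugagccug
Counted from 1 at the 5′ end, miR-99a-5p and miR-100-5p differed by the single change U16A, so their first 15 bases were the same. From miR-99a-5p to miR-99b-5p the changes were A1C, U11A, U16C and U21C. The miR-125a-5p and miR-125b-5p strands shared their first 13 bases, with lengths of 24 and 22 nt. Only the 3 miR-99/100 members held the seed ACCCGUA, whereas the seed CCCUGAG was also that of miR-351-5p, miR-6367 and miR-6394. The last 2 had no count in any library.

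The clusters were located by exact match of the mature strands to NCBIM37 (mm9), the build of the study, and all lie on the plus strand. Mir99b, Mirlet7e and Mir125a form the tightest one, which spans 683 bp at chr17:17967158-17967840. There the annotation places Mir125a in an exon of Ncrna00085 and lists no other gene at Mir99b and Mirlet7e. Mir99a, Mirlet7c-1 and Mir125b-2 spread over 47400 bp at chr16:77599185-77646584, with Mir99a and Mirlet7c-1 in an intron of Gm11146 on the opposite strand and Mir125b-2 outside other genes. Mir100, Mirlet7a-2 and Mir125b-1 spread over 50565 bp at chr9:41339520-41390084, in introns of the long non-coding RNA D230004N17Rik, where Mir125b-1 also lies in an intron of 2610203C20Rik.

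The total count ranged from 144452 to 424122 per library. Levels are given as CPM, the count relative to the library's total scaled by the trimmed mean of M-values (TMM). Intervals of shares cover counting error only, and no sequencing batch is given in the labels. The melanocyte miRNA miR-211 was present in all 9 libraries, at 6700 to 26740 CPM. One library stood apart, BrdU replicate 3. There the stromal markers miR-143 and miR-145a summed to 267977 CPM against at most 6777 CPM in the other libraries, and the erythroid markers miR-451a and miR-144 to 7133 CPM against at most 288.2 CPM. The endothelial marker miR-126a reached 7309 CPM against at most 263.5 CPM, and the 3 leukocyte markers miR-142a, miR-223 and miR-150 summed to 1513 CPM against at most 69.2 CPM, with miR-150 at 0 in that library. The hepatic marker miR-122 stood at 21.6 CPM there and at most at 76.8 CPM elsewhere. For the stromal, erythroid, leukocyte and hepatic markers the highest value elsewhere was that of L-Tyr replicate 2. Its stromal sum of 6777 CPM stood against 1846 and 1811 CPM in L-Tyr replicates 1 and 3. The main fold changes and ratios that involve BrdU are given with and without BrdU replicate 3, and the part of these markers in the results was not tested.

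The 5 miRNAs together took 6.53% ± 0.26 (SD, n = 3) of the counts in control cells, 10.3% ± 1.57 (SD, n = 3) with L-Tyr and 11.8% ± 2.94 (SD, n = 3) with BrdU. Both exposed groups lay above the control libraries, whose shares were between 6.23% and 6.70%. In the BrdU group the library that stood apart was the lowest, with a mean of 13.4% over the other 2. These are shares of the unscaled total count, and in that library miR-143 alone held 73907 of 381324 counts. Its part in the lower share was not tested. Over all libraries miR-99b-5p held 53.6% of the members' counts, miR-125b-5p 20.2% and miR-99a-5p 19.9%. The remaining 5 arms held 2.92% or less each. In bulk RNA, fewer cells that express a miRNA and less of it per cell cannot be told apart.

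**Figure D1:**
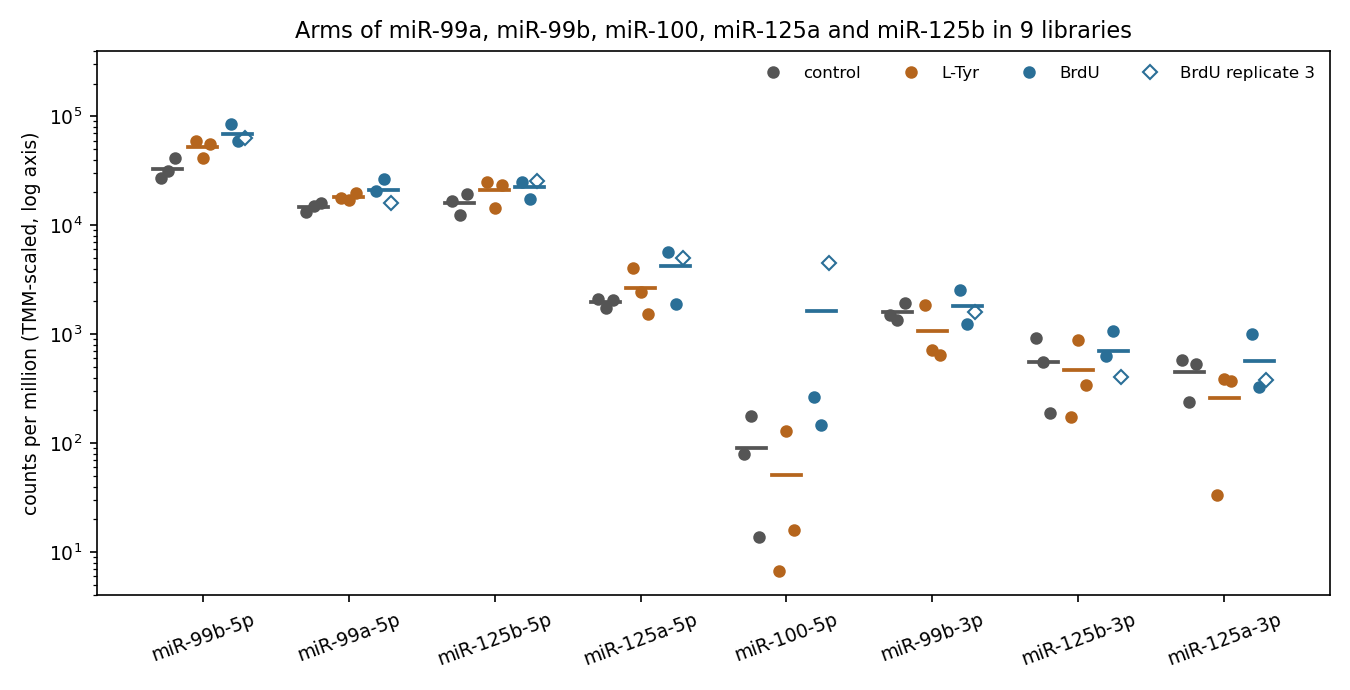
Level of each arm in every library, in TMM-scaled CPM, on a log axis. Points are libraries, bars are group means (n = 3) and the open diamond is BrdU replicate 3. The miR-99b-5p points of both exposed groups lie above all control points, and miR-100-5p is high in the open diamond alone.

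The most abundant member was miR-99b-5p. In control replicates 1 to 3 it stood at 26913, 31505 and 41026 CPM. With L-Tyr it stood at 59499, 41102 and 56153 CPM. With BrdU it stood at 84951, 59143 and 62717 CPM. Every exposed library was thus above every control library, although L-Tyr replicate 2 exceeded control replicate 3 by very little. Relative to control, miR-99b-5p rose with BrdU by a log2 fold change of 1.19 ± 0.24 (SE), a 2.27-fold change, in the quasi-likelihood test of edgeR (adjusted p = 0.0364, Benjamini-Hochberg). It was the single member arm of 8 that passed, beside 4.74% of the 253 names tested, or 4.35% that passed as higher. The call was lost with DESeq2's size factors (adjusted p = 0.0617), with total counts (adjusted p = 0.0923) and with tags of 1 name only (adjusted p = 0.09). Leaving out any 1 of the 6 libraries also ended it, with adjusted p from 0.0649 to 0.231, while the log2 fold change stayed between 0.97 and 1.26. Without BrdU replicate 3 it was 1.22 ± 0.24 (adjusted p = 0.0649). With L-Tyr the log2 fold change was 0.57 ± 0.20, 1.48-fold, with an adjusted p of 0.218. The difference between the exposures, BrdU over L-Tyr, was 0.47 ± 0.24 (adjusted p = 0.485), and 0.47 ± 0.23 without BrdU replicate 3.

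Its paralog miR-99a-5p, from the cluster on chromosome 16, stood at 13281, 15025 and 15870 CPM in control cells. With L-Tyr the values were 17941, 17158 and 19897 CPM. With BrdU they were 20547, 26366 and 15850 CPM. The L-Tyr libraries were all above the control libraries, and in the BrdU group replicate 3 lay within the control range. The log2 fold change was 0.22 ± 0.17 with L-Tyr (adjusted p = 0.669) and 0.65 ± 0.26 with BrdU (adjusted p = 0.208). Without BrdU replicate 3 the latter became 0.77 ± 0.21 (adjusted p = 0.131) and the groups no longer overlapped. Of the 280 names then tested, 17.9% were higher in this way and 48 names were lower. None of the miR-99a-5p log2 fold changes passed the threshold in edgeR.

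The third member with this seed, miR-100-5p, rested on 1 library. Its counts were 16, 80 and 3 in control cells, 1, 34 and 3 with L-Tyr, and 45, 67 and 1246 with BrdU. BrdU replicate 3 thus stood at 4477 CPM, and no other library exceeded 263.5 CPM. The fitted log2 fold change of BrdU over control was 4.17 ± 1.49 (adjusted p = 0.178), and without that library it was 1.20 ± 1.13. For BrdU over L-Tyr the values were 5.01 ± 1.61 (adjusted p = 0.217) and 1.98 ± 1.60 in the same order.

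The base that tells miR-100-5p from miR-99a-5p could be read in the tags. The most abundant tag of each kind that starts at the first mature base is shown in the letters of the table, with position 16 of the mature strand in capitals.
miR-100-5p tag: aacccgtagatccgaActtg
miR-99a-5p tag: aacccgtagatccgaTcttg
The first was counted 499 times in BrdU replicate 3 and at most 7 times in any other library. The second was counted 390 times in that library and between 172 and 837 times in the others. Among all counts listed under miR-100, those with the miR-100-5p base made up 1222 of 1246 in BrdU replicate 3, or 98.1% (95% Wilson interval 97.1% to 98.7%). In the other 8 libraries they made up 76 of 249, or 30.5% (25.1% to 36.5%). A further 163 of those 249 counts carried the miR-99a-5p base, which is 0.414% of the miR-99a-5p counts of these libraries. None of the 163 matched the hairpin of miR-99a or of miR-100 letter for letter, and their origin was not tested. Counts with the miR-100-5p base numbered 38 in control replicate 2 and 25 in BrdU replicate 1. They numbered 8 or fewer in the other 6 of these libraries, and control replicate 3 and L-Tyr replicates 1 and 3 had none. In BrdU replicate 3, 107 of the 1246 counts matched neither hairpin letter for letter.

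**Figure D2:**
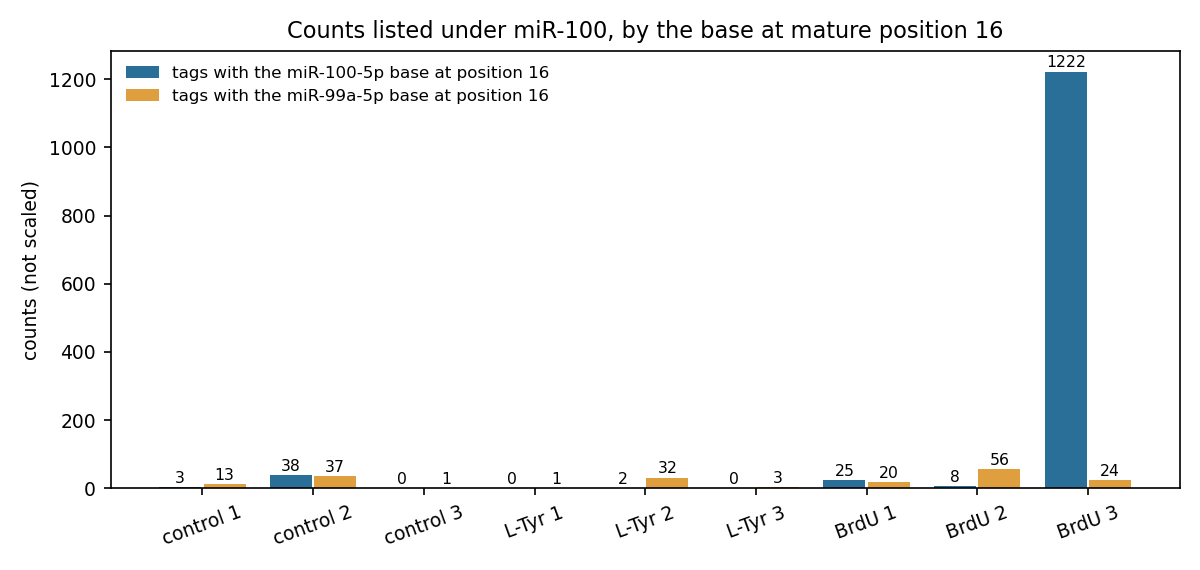
Counts listed under miR-100 in each library, not scaled, split by the base at position 16 of the mature strand, where miR-100-5p and miR-99a-5p differ. BrdU replicate 3 holds 1222 counts with the miR-100-5p base, against at most 38 in any other library.

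The miR-125 paralogs differed in level and in spread. In control cells miR-125b-5p stood at 16572, 12351 and 19519 CPM. With L-Tyr it stood at 24721, 14507 and 23481 CPM, and with BrdU at 25026, 17554 and 25343 CPM. In each exposed group replicate 2 lay within the control range and the other 2 libraries above it. The log2 fold change was 0.29 ± 0.23 with L-Tyr (adjusted p = 0.71) and 0.62 ± 0.22 with BrdU (adjusted p = 0.178), and 0.50 ± 0.25 without BrdU replicate 3. The smaller miR-125a-5p stood at 2105, 1753 and 2066 CPM in control cells. With L-Tyr it was at 4052, 2467 and 1526 CPM, a range that surrounded the control values. With BrdU it was at 5680, 1902 and 4977 CPM, with replicate 2 again within the control range. Its log2 fold change was 0.34 ± 0.34 with L-Tyr (adjusted p = 0.789) and 1.19 ± 0.38 with BrdU (adjusted p = 0.142). Without BrdU replicate 3 the latter was 1.03 ± 0.43, and without BrdU replicate 2 it was 1.47 ± 0.25 and passed (adjusted p = 0.0486).

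The 2 copies of miR-125b could not be separated by the 5p arm. Of its 21 tag sequences, 17 were listed under both Mir125b-1 and Mir125b-2 and held 99.8% of the counts. Within these, the share given to Mir125b-1 was between 49.2% and 51.5% in every library. The 3p arms do differ between the copies, and they are shown with bases 2 to 8 in capitals.
miR-125b-1-3p: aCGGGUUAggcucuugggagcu
miR-125b-2-3p: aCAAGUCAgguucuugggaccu
All 1507 counts of the 3p arm were tags of Mir125b-2, the copy in the cluster on chromosome 16, and no tag was listed for the 3p arm of Mir125b-1 on chromosome 9. Likewise no tag was listed for miR-99a-3p, miR-100-3p or let-7a-2-3p. The table lists a tag only where at least 1 library reached 5 counts, so fewer counts than that would not be seen.

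The 3p arms that were measured were far less abundant than their 5p partners. In control cells miR-99b-3p was at 1510, 1338 and 1933 CPM. With L-Tyr it was at 1839, 711 and 644 CPM, and with BrdU at 2559, 1229 and 1613 CPM. The last 2 L-Tyr libraries lay below the control libraries and the first lay among them, and the log2 fold change was -0.68 ± 0.45 with L-Tyr (adjusted p = 0.563) and 0.30 ± 0.33 with BrdU (adjusted p = 0.733), or 0.34 ± 0.37 without BrdU replicate 3. Both directions turned when only the most abundant tag was fitted, to 0.77 ± 0.76 with L-Tyr and -1.21 ± 0.85 with BrdU. The counts of miR-125a-3p were between 106 and 116 in control cells, between 5 and 100 with L-Tyr and between 106 and 172 with BrdU. Those of miR-125b-3p ranged from 41 to 248, from 26 to 230 and from 107 to 492 in the same order. For both arms the groups overlapped in all 3 comparisons, with standard errors of 0.59 to 0.97 on the log2 scale. With BrdU their log2 fold changes were 0.49 and 0.48, and 0.67 and 0.69 without BrdU replicate 3.

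Read by direction, 4 of the 5 5p arms had a log2 fold change above 0 with L-Tyr and the 3p arms and miR-100-5p one below 0, beside 40.3% of the names tested above 0. This held whether the libraries were scaled by TMM, by DESeq2's size factors or by total count. With BrdU all 8 arms had one above 0 under each scaling, beside 51.8% of the names tested, and their median was 0.64 against 0.02 over all names. The arms of one hairpin and the copies of one seed are not independent of each other. Unadjusted p-values under 0.05 came from all 5 of the 5p arms with BrdU and from none of the 3p arms, beside 20.6% of all names, or 14.2% in the higher direction. Without BrdU replicate 3 they came from miR-99b-5p, miR-99a-5p and miR-125a-5p, beside 13.2% of names, and edgeR called none, beside 1.79% of names. The control and BrdU groups did not overlap for 1 of 8 arms, miR-99b-5p, beside 13.0% of names that were higher in this way.

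Between L-Tyr and control, edgeR called 0 of the 8 arms, beside 2.58% of 233 names, DESeq2's Wald test called 0, and 1 arm, miR-99b-5p, had an unadjusted p under 0.05, beside 15.0% of names. The groups did not overlap for miR-99b-5p and miR-99a-5p, both higher, beside 10.3% of names that were higher in this way. The median log2 fold change was -0.07 over the 8 arms and 0.29 over the 5p arms. Over all names it was -0.20 with TMM, -0.12 with DESeq2's size factors and 0.07 with total counts, so the L-Tyr values move with the scaling, and miR-99b-5p passed with total counts (log2 fold change 0.83, adjusted p = 0.0346).

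Between the exposures, edgeR called 0 of the 8 arms, beside 2.70% of 222 names, as did DESeq2. The 1 arm with an unadjusted p under 0.05 was miR-100-5p, beside 13.1% of names, and for it alone the groups did not overlap, beside 11.3% of names that were higher in this way. Without BrdU replicate 3 edgeR called 0 arms and 0 had an unadjusted p under 0.05, beside 2.01% and 10.0% of names. The groups then did not overlap for miR-99a-5p and miR-100-5p, both higher, beside 35 of 249 names that were higher in this way. All 8 arms had a log2 fold change of BrdU over L-Tyr above 0 with TMM, beside 58.1% of names. With total counts miR-125b-5p fell just below 0, at -0.05.

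**Figure D3:**
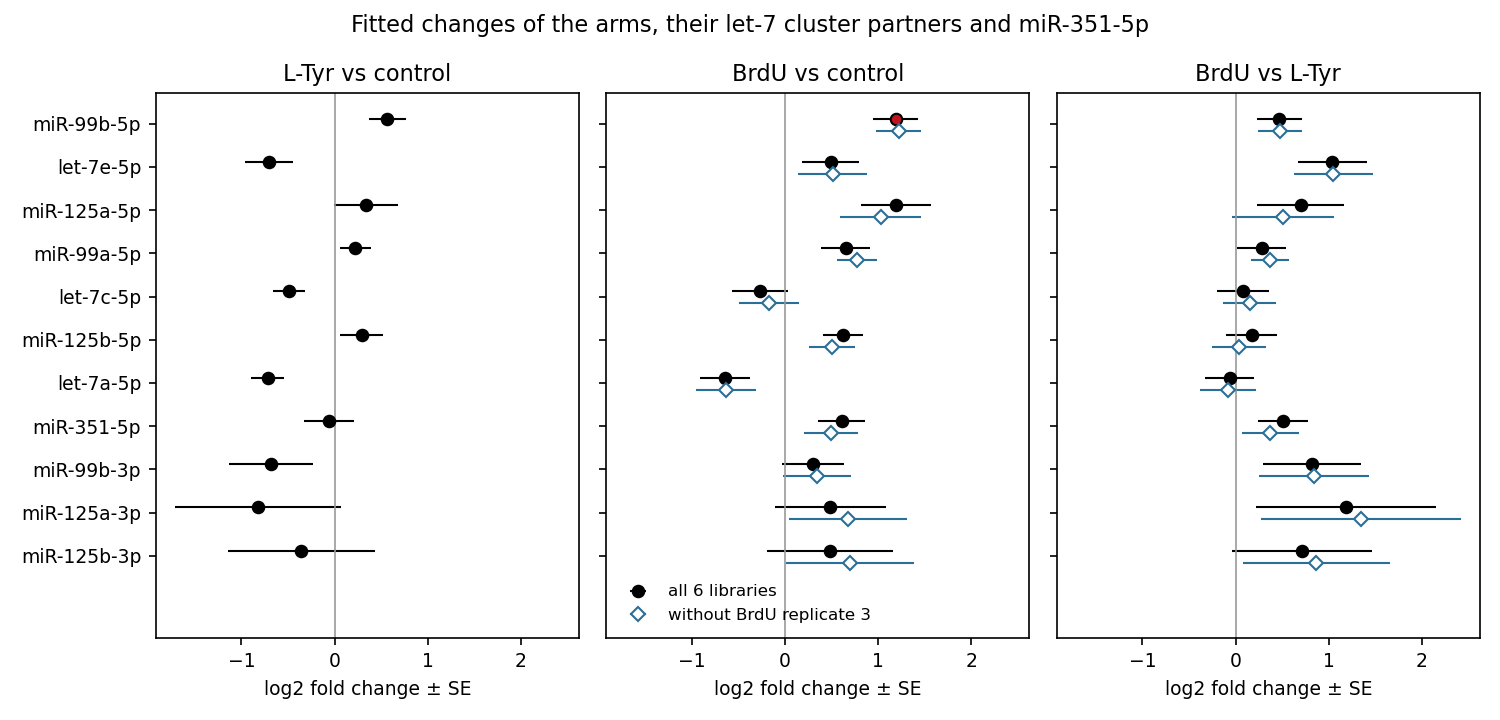
Log2 fold change with its standard error for the arms, the let-7 cluster partners and miR-351-5p in each comparison (edgeR, n = 3 libraries per group). Filled circles use all 6 libraries, open diamonds leave out BrdU replicate 3, and red marks an adjusted p under 0.05, reached by miR-99b-5p with BrdU alone. miR-100-5p is not drawn, since its value comes from 1 library.

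The let-7 partners of the clusters were next compared with the miR-99 strands. In the 683-bp cluster, let-7e-5p stood at 4926, 3693 and 5105 CPM in control cells. With L-Tyr it was lower in every library, at 3638, 2128 and 3162 CPM, although the first of these was close to the lowest control value. With BrdU it was at 8689, 3547 and 5447 CPM, on both sides of the control range. Its log2 fold change was -0.71 ± 0.26 with L-Tyr (adjusted p = 0.218), 0.49 ± 0.31 with BrdU (adjusted p = 0.466) and 1.04 ± 0.37 for BrdU over L-Tyr (adjusted p = 0.222). The last 2 were 0.51 ± 0.37 and 1.05 ± 0.42 without BrdU replicate 3. The strands let-7c-5p and let-7a-5p come from 2 hairpin copies each, of which 1 lies in a cluster. Their log2 fold changes were -0.49 ± 0.17 and -0.72 ± 0.18 with L-Tyr (adjusted p = 0.218 and 0.0989) and -0.27 ± 0.30 and -0.64 ± 0.27 with BrdU (adjusted p = 0.733 and 0.22), and -0.17 ± 0.32 and -0.63 ± 0.32 without BrdU replicate 3. All 3 L-Tyr libraries were below the control libraries for let-7a-5p, as for let-7e-5p, beside 26 of the 233 names tested that were lower in this way. The let-7e-3p, let-7c-3p and let-7a-3p arms had at most 113 counts in a library, and the arm specific to Mirlet7c-1 at most 29.

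Ratios within a library do not depend on its scaling, and compare members of 1 cluster or paralogs of 2. Of 9 ratios in 3 comparisons, 27 in all, 4 had groups that did not overlap, and these had the smallest p that the exact two-sided permutation test of 3 against 3 libraries allows, 0.1. None can pass at this size, and the smallest p after adjustment over the 27 was 0.675. Groups without any difference separate in this way with the same probability, 0.1, so some of the 27 would do so. All 4 hold miR-99b-5p and use the same control libraries, so they are not independent of each other.

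The first 2 concerned let-7e-5p and miR-99b-5p, strands of hairpins in the same 683-bp cluster. The let-7e-5p to miR-99b-5p ratio was 0.183, 0.117 and 0.124 in control cells. It was 0.0612, 0.0518 and 0.0564 with L-Tyr and 0.102, 0.0600 and 0.0869 with BrdU, and no exposed library reached the lowest control value. The log2 ratio fell by 1.30 ± 0.21 (SE) with L-Tyr and by 0.78 ± 0.30 with BrdU (exact permutation p = 0.1 for both), and by 0.82 without BrdU replicate 3. These 2 values share the control libraries. The difference between BrdU and L-Tyr was 0.53 ± 0.24 (exact permutation p = 0.2), and 0.48 without BrdU replicate 3. With only the most abundant tag of each arm the values were -0.92 ± 0.71 and -0.39 ± 0.63.

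The other 2 concerned the arms of miR-99b itself. The 5p arm was 17.8, 23.5 and 21.2 times as abundant as the 3p arm in control cells. With L-Tyr the ratio was 32.3, 57.7 and 86.8, and with BrdU it was 33.2, 48.1 and 38.8. Again every exposed library was above every control library. The log2 ratio was higher by 1.40 ± 0.43 with L-Tyr and by 0.93 ± 0.19 with BrdU (exact permutation p = 0.1 for both), and by 0.95 without BrdU replicate 3. With only the most abundant tag of each arm the differences were 0.44 ± 0.84 and 2.92 ± 0.93. For miR-125b the same ratio ran from 17.8 to 102 in control cells, from 16.4 to 140 with L-Tyr and from 16.4 to 62.7 with BrdU, and for miR-125a from 3.65 to 7.38, from 4.11 to 110 and from 5.63 to 13.0. The groups of both overlapped in all 3 comparisons.

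The ratios between paralogs overlapped between the groups in all 3 comparisons. The miR-99b-5p to miR-99a-5p ratio was 2.03, 2.10 and 2.58 in control cells, 3.32, 2.40 and 2.82 with L-Tyr and 4.13, 2.24 and 3.96 with BrdU. BrdU replicate 2 lay among the control libraries, and the log2 difference was 0.58 ± 0.30 with BrdU and 0.34 ± 0.17 with L-Tyr (exact permutation p = 0.2 for both). The BrdU value was 0.45 without BrdU replicate 3. The miR-125a-5p to miR-125b-5p ratio was 0.127, 0.142 and 0.106 in control cells. It was 0.164, 0.170 and 0.0651 with L-Tyr and 0.227, 0.108 and 0.196 with BrdU, and the groups overlapped (exact permutation p = 0.3 for BrdU and 1.0 for L-Tyr). The log2 difference with BrdU was 0.45 ± 0.35, and 0.34 without BrdU replicate 3. Within the cluster on chromosome 17, miR-125a-5p stood to miR-99b-5p as 0.0504 to 0.0783 in control cells, 0.0272 to 0.0682 with L-Tyr and 0.0322 to 0.0794 with BrdU. The ratios of miR-99b-5p and miR-99a-5p to miR-100-5p spanned 14.0 to 5932 and 3.54 to 1789 over the libraries, with BrdU replicate 3 the lowest in both.

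**Figure D4:**
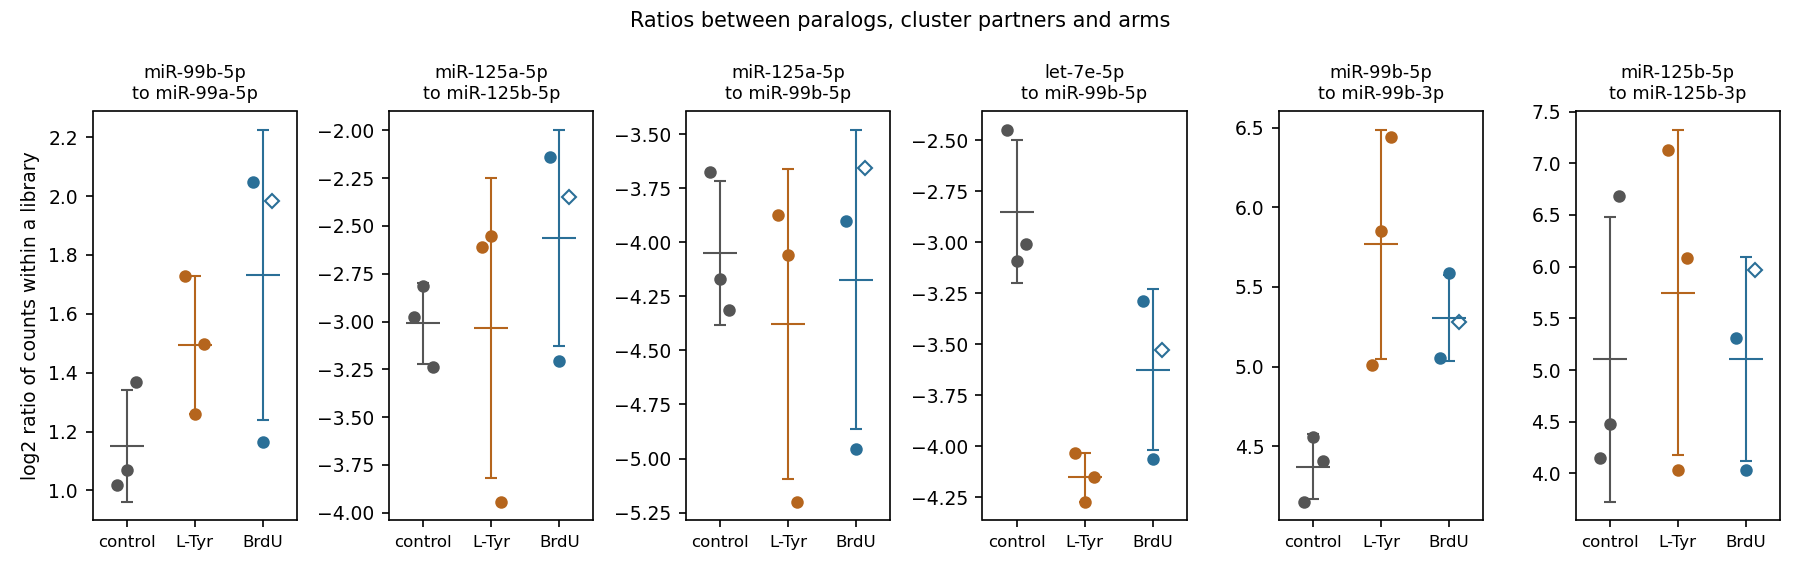
Log2 ratio of the counts of 2 arms within each library, one panel per ratio with its own axis. Points are libraries, horizontal bars with whiskers are the mean and SD of 3 libraries, and the open diamond is BrdU replicate 3. The let-7e-5p to miR-99b-5p ratio of both exposed groups lies below, and the miR-99b-5p to miR-99b-3p ratio above, all control points.

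Some counts can be assigned to 1 cluster. For this, counts under miR-99a and miR-100 were kept only where the tag carried that miRNA's own base at position 16. The strands made from more than 1 hairpin, miR-125b-5p, let-7c-5p and let-7a-5p, were left out, with 44419, 132021 and 83869 listed counts. All arms of the cluster on chromosome 17 were kept. The shares below therefore do not compare the whole output of the clusters. The cluster on chromosome 17 held 72.9% ± 2.64 (SD, n = 3) of the assigned counts in control cells, 75.6% ± 3.42 with L-Tyr and 77.3% ± 6.09 with BrdU. The cluster on chromosome 16, read from miR-99a-5p, let-7c-1-3p and miR-125b-2-3p, held 27.0% ± 2.58, 24.4% ± 3.42 and 21.1% ± 7.04. The BrdU means of these clusters were 76.7% and 23.2% without BrdU replicate 3. The cluster on chromosome 9, read from miR-100 alone, held between 0 and 0.156% in each library except BrdU replicate 3, where it held 4.58%. No test was made of these shares.

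Of the miRNAs with the miR-125 seed that are no members, miR-351-5p was the one with counts. It stood at 2915, 1894 and 3163 CPM in control cells, 2935, 2171 and 2998 CPM with L-Tyr and 3970, 2983 and 4057 CPM with BrdU. The BrdU libraries 1 and 3 lay above the control libraries, and the log2 fold change was 0.61 ± 0.25 with BrdU (adjusted p = 0.217), 0.49 ± 0.29 without BrdU replicate 3, and -0.06 ± 0.27 with L-Tyr (adjusted p = 0.976). Likeness of pattern was measured as the root mean square difference of centred log2 CPM over the 9 libraries, among 185 other names with a mean of at least 100 CPM. By this measure miR-351-5p was the name most like miR-125b-5p, at 0.18, and none of the counts of miR-125b-5p was in a tag that is also listed under another name. For miR-99b-5p the nearest were miR-191-5p at 0.26, a predicted hairpin strand at 0.27 and miR-129-5p at 0.30. For miR-99a-5p it was miR-15b-5p at 0.20, and for miR-125a-5p it was miR-331-3p at 0.39. The names nearest to miR-99b-3p were miR-101b-3p at 0.28 and the cluster partner let-7e-5p at 0.33. Those nearest to miR-100-5p were miR-322-5p at 0.97, miR-542-3p at 0.97 and miR-126a-3p at 1.17, of which miR-322-5p stood at 7219 CPM in BrdU replicate 3 and at most at 189.6 CPM elsewhere. For miR-125a-3p and miR-125b-3p no name was nearer than 0.63. These are descriptions over libraries that share depth and scaling, with no test.

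Most counts of the 5p arms were in tags that began inside the mature strand, and the share that began at its first base ran from 3.25% for miR-125a-5p to 41.8% for miR-100-5p. In the 3p arms it ran from 31.9% to 48.9%. The tags were 14 to 20 nt long, while the mature strands have 22 or 24 nt, and no tag held a whole mature strand. A tag that ends at the last base of a mature strand must therefore start inside it. The shortest tags were below the 17 nt minimum of the aligned reads, so a tag need not be a whole read. Of the 163 tags, 123 matched their own RefSeq hairpin letter for letter, and the other 40 held 1.48% of the members' counts.

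For miR-99b-5p, 6.64% of the counts started at the first mature base and 34.2% started 2 bases further in, while 75.1% ended at the last mature base. The most abundant tags of miR-99b-5p are shown with their lengths of 20, 18 and 19 nt, since all 3 end at the same base.
miR-99b-5p tag, 30.4% of its counts: cccgtagaaccgaccttgcg
miR-99b-5p tag, 15.7% of its counts: cgtagaaccgaccttgcg
miR-99b-5p tag, 15.0% of its counts: ccgtagaaccgaccttgcg
The share of counts that reached the whole seed, with a start at the first or second mature base, was 13.9% for miR-99b-5p, 21.3% for miR-99a-5p, 43.0% for miR-125b-5p and 59.0% for miR-100-5p. It was lowest for miR-125a-5p, at 4.92%. For miR-99b-5p this share was 13.4% ± 1.84 (SD, n = 3) in control cells, 15.2% ± 1.16 with L-Tyr and 13.6% ± 2.18 with BrdU. The libraries of the groups overlapped, and the difference was not tested. The miR-100-5p counts come mostly from 1 library, BrdU replicate 3. The shares with the whole seed describe the listed tags, which reached at most 20 nt. They do not show how much of a strand in the cells lacked its seed.

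**Figure D5:**
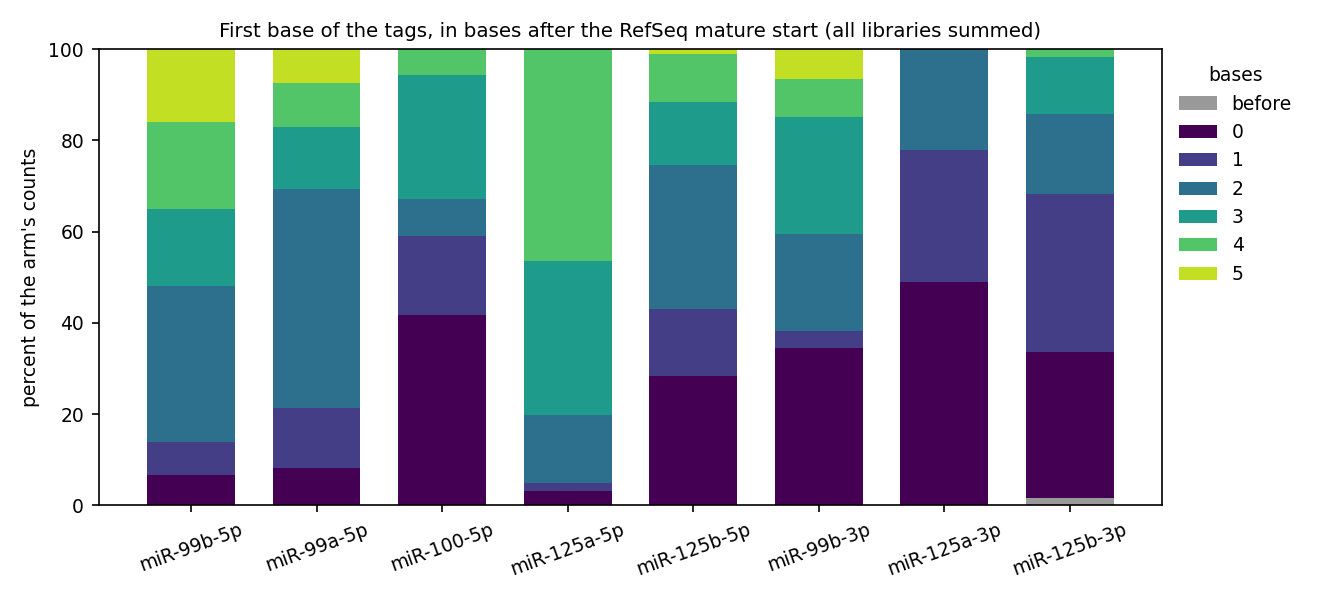
Share of each arm's counts, summed over the 9 libraries, by the first base of the tag relative to the first base of the mature strand in RefSeq (0, the number of bases further in, or grey for tags that start before it). In miR-99b-5p, miR-99a-5p, miR-125a-5p, miR-125b-5p and miR-99b-3p most counts start 2 or more bases inside the mature strand.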

How the data were processed

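Small RNA libraries of 9 B16F1 samples were grouped by the sample labels into control, L-Tyr and BrdU, with 3 libraries each. The counts were deposited by the authors as the output of BaseSpace Small RNA 1.0, which had aligned reads between 17 and 35 nt to miRBase 21 and the mm9 genome. The authors' normalized counts and DESeq2 comparison tables (fold changes and p-values) were also deposited and were not used. Counts were summed by miRNA name and arm, where a start number under 35 in a tag's name means 5p. The deposited table lists tags of the same sequence under several hairpins, and these were kept under each.

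Each comparison used its 6 libraries and all names in edgeR 4.0.16 (R 4.3.3): TMM, filterByExpr, the quasi-likelihood test, Benjamini-Hochberg adjustment over all names tested and a call at an adjusted p under 0.05. Levels are CPM with TMM factors of all 9 libraries. Ratios had 0.5 added to each count and were tested by exact permutation (scipy 1.17.1). On simulated data with 40 changed names in each of 20 draws, the BrdU and control fit of 253 names called 55.4% of 8-fold changes, 3.05% of 2-fold changes and 0.232% of unchanged names. The L-Tyr and control fit of 233 names called 60.1%, 13.1% and 0.35% of them. Among names with a mean count of at least 1000, where miR-99b-5p, miR-99a-5p and miR-125b-5p lie, the rates were higher. The BrdU fit then called 99.2% of 8-fold and 11.1% of 2-fold changes, and the L-Tyr fit 100% and 46.2%. Names were matched to RefSeq, and strands were located in NCBIM37 with its GENCODE annotation. DESeq2 1.42.0 served as an alternative.

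The members, gene lists and tests were chosen with earlier results of these data known. Named are all member arms with a count, the let-7 hairpins of the clusters, miRNAs with the same bases 2 to 8, and up to 3 names nearest to each arm. Alternatives were the most abundant tag, DESeq2's size factors, total counts, leaving out miR-3963, fits without a filter, a minimum mean count of 50, DESeq2's Wald test, all 9 libraries in 1 fit, a replicate block, tags of 1 name only, leaving out each library, and, chosen after seeing the data, only tags that match their own hairpin. A value was taken as reversed whenever its sign changed. The ratio of the 3p arms of Mir125b-1 and Mir125b-2 was not run, since the first had no tag.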

Additional observations from a re-analysis of the deposited data

How the results depend on the processing

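Of 399 values of a member arm under an alternative, 369 kept their direction and their side of the threshold, 11 lost and 4 gained a call, and 15 changed sign. Of 243 values of a ratio 20 changed sign. The number of member arms called was 1 for BrdU against control. It was 0 with the most abundant tag, with DESeq2's size factors, with total counts, with tags of 1 name only and with the replicate block, 2 without a filter (miR-99b-5p and miR-100-5p), and 0 to 1 when a library was left out, where the 1 was miR-125a-5p without BrdU replicate 2. Against L-Tyr, BrdU had 1 arm called without a filter (miR-100-5p, adjusted p = 1.96e-06) in place of 0. For L-Tyr against control 1 was called with total counts in place of 0. In both, leaving out a library gave 0. Under the alternatives the log2 fold change of miR-99b-5p with BrdU was 0.97 to 1.26, with adjusted p from 0.00029 to 0.231.

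Same-numbered libraries did not deviate together (correlations of -0.092 to 0.021), so the replicate numbers were not taken as pairs. With the replicate block the miR-99b-5p value for BrdU was 1.19 ± 0.29 (adjusted p = 0.125), and the count of all names called went from 12 to 1 for BrdU against control, from 6 to 2 for BrdU against L-Tyr and from 6 to 10 for L-Tyr against control.

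Over all names, calls for BrdU against control (12) were 0 by tag, 6 with DESeq2's size factors, 3 with total counts, 49 without a filter, 21 in DESeq2, 2 with tags of 1 name only and 0 to 13 without 1 library. For BrdU against L-Tyr (6) they were 2 by tag, 27 without a filter, 11 in DESeq2, 3 in the fit of all 9 libraries and 0 to 5 without 1 library. For L-Tyr against control (6) they were 1 by tag, 12 without a filter, 18 in DESeq2 and 0 to 7 without 1 library.

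Sign changes were as follows. By its most abundant tag, miR-99b-3p was 0.77 with L-Tyr, -1.21 with BrdU and -1.99 for BrdU against L-Tyr. For BrdU against L-Tyr miR-125b-5p was -0.24 by its most abundant tag and -0.047 with total counts. By the most abundant tags, the log2 ratio of miR-99a-5p to miR-100-5p was -0.22 with L-Tyr, and with BrdU miR-125a-5p to miR-125a-3p was -0.27 and miR-125b-5p to miR-125b-3p -0.12 (-0.14 with tags that match their own hairpin). For BrdU against L-Tyr miR-125a-5p to miR-99b-5p was then -0.0059 and miR-99b-5p to miR-99b-3p 2.48.

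When a library was left out, the L-Tyr values crossed 0 for miR-100-5p (-3.03 to 0.032), miR-125a-5p (-0.00086 to 0.74) and miR-125b-3p (-1.18 to 0.28). The BrdU values did so for miR-99b-3p (-0.072 to 0.42), miR-125a-3p (-0.24 to 0.67) and miR-125b-3p (-0.11 to 0.94). Those of BrdU against L-Tyr did so for miR-99a-5p (-0.013 to 0.38) and miR-125b-5p (-0.081 to 0.29). The log2 ratio of miR-125a-5p to miR-99b-5p ranged from -0.58 to 0.084 with L-Tyr, from -0.38 to 0.27 with BrdU and from -0.21 to 0.60 between them. That of miR-125b-5p to miR-125b-3p ranged from -0.043 to 1.5, from -0.47 to 0.79 and from -1.5 to 0.046 in the same order. That of miR-125a-5p to miR-125b-5p ranged from -0.26 to 0.43 with L-Tyr, and that of miR-125a-5p to miR-125a-3p from -1.82 to 0.55 for BrdU against L-Tyr.

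The 4 ratios whose groups did not overlap became 2 with the most abundant tags, 8 with tags that match their own hairpin, and 4 to 11 without 1 library, where fewer libraries overlap less by construction, with 10 without L-Tyr replicate 2 and 11 without BrdU replicate 2. The cause of the other changes was not tested. Depth is lowest for miR-100-5p, with 1 count in the lowest library, and for miR-125a-3p, with 5.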
